A study of Mus musculus with 2 samples.

Results

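Marker genes of the immune cells of skin were followed in back skin of mice given FGF18 and of a saline control. The 40 genes are known markers of macrophages, Langerhans cells and antigen presentation, mast cells, T cells, neutrophils and, with Ptprc, leukocytes as a whole, and they form a list of names with no threshold on their values, drawn up with earlier results of these arrays known. A transcript cluster with a single gene symbol was found for 38 of them, out of 22180 named genes on the array. Cd74 and Lck had none and have no level of their own here; 1 cluster annotated to Cd74 together with Mir5107 enters only as an alternative. All 38 were measured by 1 cluster each.

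Total RNA of skin was hybridised to Affymetrix Mouse Gene 2.0 ST arrays, 1 for FGF18 and 1 for saline. Both samples came from 7-week-old males of BALB/cAJcl, which is an albino strain. In the FGF18 group, hair was removed from the back to start the growth phase of the follicles, and 6 days later the mice received an intraperitoneal injection of FGF18 (100 µg) in a saline vehicle that held 5 µg/µl heparin. They were irradiated as a whole with γ-rays at 6 Gy after a further 24 h, and skin was taken 4 h after irradiation. The other group is labelled only as a saline control. Its depilation, heparin, irradiation and number of mice are not given in the labels, and neither is the number of mice behind the FGF18 array, so the agent, the radiation and the animal cannot be told apart. With 1 array per group there is no replicate error and no test, and every difference below compares these 2 arrays.

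Skin holds resident leukocytes in each of its layers. Langerhans cells live in the epidermis, depend on the CSF1 receptor and its keratinocyte-made ligand IL-34, and present antigen on MHC class II. Macrophages and mast cells live in the dermis, the macrophages maintained through the CSF1 receptor and the mast cells through KIT, whereas neutrophils enter from blood during inflammation, and T cells are found in epidermis and dermis.

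The values are intensities on a linear scale, and differences are FGF18 minus saline of log2(intensity + 1), which understates the change of dim genes. In bulk skin, fewer cells of a type and less RNA per cell cannot be told apart. Probe sets differ in brightness for the same amount of RNA, so the intensity of one gene is not set against that of another as an amount. Each gene is set against the median of its array instead, which was 13.8 for FGF18 and 13.9998 for saline. Olfactory receptor genes, which serve odour detection in the nose, give a scale for transcripts not looked for in skin. Their 95th percentile over 1088 genes was 14.5 on the FGF18 array and 16.5 on the saline array, close to those medians. A fold value is printed only for genes above both medians. Log2 differences are also given for some dimmer members, and counts past 1.5-fold cover all measured members unless limited to genes above both medians. Where a gene has several clusters above both medians, the clusters disagreed with a standard deviation of 0.23 on the log2 scale over 364 genes. That figure covers probe sets only and no variation between animals. The share of all named genes past it was not counted, so a member past it is not set apart by that.

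As a check of the tissue, all 11 markers of differentiated keratinocytes, all 8 of fibroblasts, all 8 of melanocytes and all 7 of skeletal muscle lay above both medians, and 16 of the 38 immune markers did (53.3% of all named genes did). Of the remaining 22 immune markers, 18 lay at or below the median on both arrays, 3 were above it only on the saline array and 1 only on the FGF18 array. Above both medians were 9 of 15 macrophage genes, 3 of 5 Langerhans and antigen presentation genes, 2 of 6 T cell genes, 1 of 8 mast cell genes and none of 3 neutrophil genes, besides Ptprc. Against the 95th percentile of olfactory receptor genes, a limit chosen after the values were seen, 12 of the 38 were above on both arrays, compared with 49.1% of named genes.

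**Figure D1:**
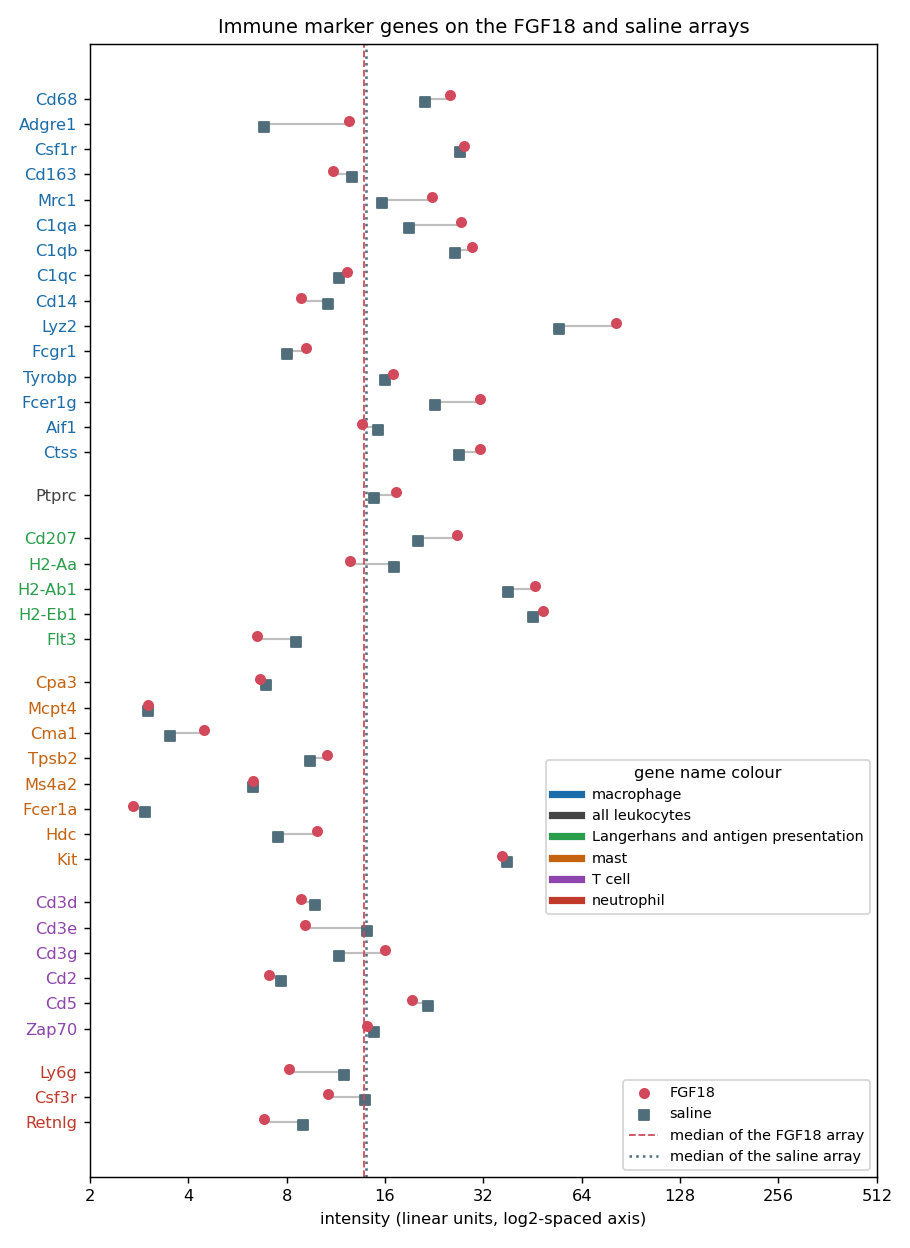
Intensity of each of the 38 measured immune marker genes on the FGF18 array (circles) and the saline array (squares), on a log2-spaced axis, with the median of each array as a vertical line. Macrophage genes lie on both sides of the medians, 7 of 8 mast cell genes and all 3 neutrophil genes lie to their left, and Lyz2 is the brightest member at 81.4 on the FGF18 array and 54.6 on the saline array.

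Across the 38 genes, 20 were higher and 16 lower on the FGF18 array, and 2 had exactly equal values. Of all named genes 49.5% were higher, 45.5% lower and 5.03% equal, so the set as a whole sat near the background, with a median difference of 0.06 beside one of 0.00 over all named genes. A single member, the macrophage gene Adgre1, reached 1.5-fold higher and none reached 1.5-fold lower, where 2.61% and 4.15% of all named genes did. No member reached 2-fold, where 0.257% of all named genes did so upward and 1.06% downward. Of all genes above both medians, 3.21% lay past 1.5-fold upward and 4.08% downward, and none of the 16 immune members did. The cell types did not share a direction. Macrophage genes were mostly higher, with 12 of 15 higher and a median of 0.17, all 3 neutrophil genes were lower, with a median of -0.36, and 5 of 6 T cell genes were lower, with a median of -0.12. With a pseudocount of 16, which shrinks the differences of dim genes, these medians were 0.11, -0.16 and -0.046 for macrophage, neutrophil and T cell genes. Direction differed with brightness over the whole array: of named genes above both medians, 58.4% were higher and 38.6% lower. Above both medians were 9 of 15 macrophage genes, 2 of 6 T cell genes and none of 3 neutrophil genes. Langerhans and antigen presentation genes were split 3 to 2 with a median of 0.09, which turned to -0.13 when the cluster shared by Cd74 and Mir5107 was counted and to -0.0069 as a mean, and mast cell genes 3 to 3, with 2 equal and a median of 0.00.

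**Figure D2:**
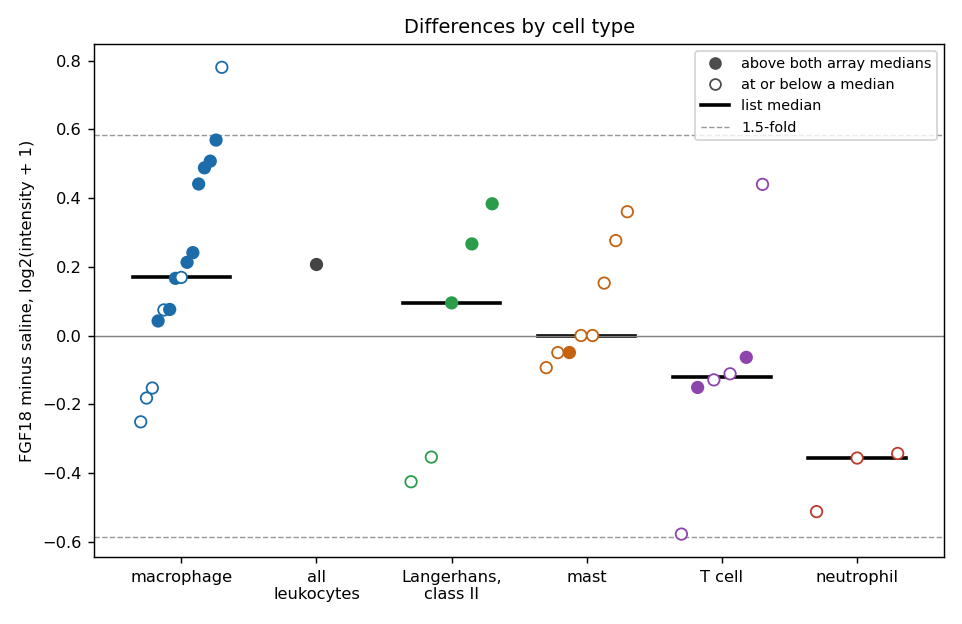
Difference (FGF18 minus saline, log2(intensity + 1) scale) of each member by cell type; filled points lie above both array medians, bars are list medians and dashed lines mark 1.5-fold. The 9 filled macrophage points all lie above 0, as do 58.4% of all named genes above both medians. The neutrophil points all lie below 0 and are open, and Adgre1 is the only point past a dashed line.

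Lyz2, the lysozyme gene of macrophages and neutrophils, read 81.4 on the FGF18 array and 54.6 on the saline array. It was 1.48-fold higher, with a difference of 0.57, the largest among the members above both medians. C1qa, which encodes a chain of the complement starter C1q, read 27.3 after FGF18 and 18.9 in saline, a difference of 0.51. Mrc1, the mannose receptor of tissue macrophages, read 22.3 after FGF18 and 15.6 in saline, a difference of 0.49. Its saline value lay under the olfactory receptor 95th percentile of that array, 16.5. Fcer1g, the shared signalling chain of Fc receptors, read 31.3 after FGF18 and 22.8 in saline, a difference of 0.44. These 4 genes stood at least 1.36-fold higher, and each difference was larger than the standard deviation of 0.23 between probe sets of one gene. The share of all named genes past these values was not counted.

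The other macrophage genes above both medians differed by less. Cd68, a lysosomal glycoprotein of macrophages, read 25.3 after FGF18 and 21.3 in saline, a difference of 0.24. Ctss, a lysosomal protease that also processes antigen, read 31.3 after FGF18 and 26.9 in saline, a difference of 0.21. Csf1r, the receptor that maintains most macrophages and Langerhans cells, was nearly level, at 27.9 after FGF18 and 27.0 in saline, with a difference of 0.04. Tyrobp, an adaptor of activating receptors in myeloid and natural killer cells, was close to level as well, at 17.0 after FGF18 and 16.04 in saline, a difference of 0.08. The differences of Csf1r and Tyrobp, unlike that of Cd68, were smaller than the disagreement between probe sets, and that of Ctss was close to it.

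The dimmer macrophage genes went both ways. Adgre1, which encodes the F4/80 antigen, had the highest difference of all members, 0.78, but read 12.4 after FGF18 and 6.82 in saline, under both medians, and with a pseudocount of 16 its difference was 0.32. Fcgr1, the high-affinity IgG receptor, read 9.15 after FGF18 and 8.03 in saline. Cd163, the haemoglobin scavenger receptor of resident macrophages, read 11.1 after FGF18 and 12.7 in saline. Cd14, the lipopolysaccharide co-receptor, read 8.85 after FGF18 and 10.7 in saline, and Aif1, a macrophage actin-binding protein, read 13.6 after FGF18 and 15.2 in saline. The last 3 of these were lower on the FGF18 array, and they are the macrophage genes that were.

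The C1q genes are direct neighbours in the RefSeq gene order, C1qb, C1qc and C1qa, with 0 protein-coding genes between them, and their chains join in 1 protein. Their differences were not equal. C1qb read 29.6 after FGF18 and 26.3 in saline, a difference of 0.17. C1qc read 12.2 after FGF18 and 11.6 in saline, a difference of 0.07, beside the 0.51 of C1qa. All were higher on the FGF18 array, and only that of C1qa exceeded the disagreement between probe sets.

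Promoter sequence is shown for C1qb, C1qc and Mrc1, macrophage genes that lay on the same side. That shared side is weak: the differences of C1qb and C1qc were smaller than the disagreement between probe sets. C1qc also lay under both medians. Capitals mark the core letters of the PU.1 motif (GAGGAA, or TTCCTC where it stands on the opposite strand). PU.1, encoded by Spi1, is the transcription factor that macrophages need. The stretches are the 200 bases before each start, 5′ to 3′ on the gene's strand, from RefSeq on GRCm38.p6, the C57BL/6J assembly: chr2:14229214-14229413 (plus strand), chr4:136886201-136886400 (minus strand) and chr4:136892915-136893114 (minus strand).
Mrc1: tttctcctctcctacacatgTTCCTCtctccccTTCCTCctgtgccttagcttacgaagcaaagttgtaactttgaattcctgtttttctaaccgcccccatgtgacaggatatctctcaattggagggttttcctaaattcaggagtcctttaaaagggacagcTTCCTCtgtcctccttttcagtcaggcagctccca
C1qb: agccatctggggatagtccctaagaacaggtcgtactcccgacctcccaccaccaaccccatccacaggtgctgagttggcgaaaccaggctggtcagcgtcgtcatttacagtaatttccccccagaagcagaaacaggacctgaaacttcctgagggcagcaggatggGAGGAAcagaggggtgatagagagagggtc
C1qc: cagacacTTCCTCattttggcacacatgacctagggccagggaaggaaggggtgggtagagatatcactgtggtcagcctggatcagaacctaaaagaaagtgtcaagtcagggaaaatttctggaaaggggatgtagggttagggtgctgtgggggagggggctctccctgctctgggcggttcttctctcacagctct

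The Mrc1 stretch holds the letters at 3 places, with first bases 180, 167 and 35 bases before the start, the C1qb stretch at 1 place, 30 bases before it, and the C1qc stretch at 1 place, 193 bases before it. RefSeq windows from 250 bases before to 50 after the start were at hand for 31 of the 40 genes. On either strand, 7 of the 10 macrophage genes with a window held GAGGAA, as did 18 of the 31 genes in all and 31.3% of all genes with a window. Of the T cell genes with a window, 5 of 6 held it too. A match is a description of the letters and not of binding.

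Other macrophage genes, from a list of 25 of which 24 were measured, had 15 higher, 7 lower and 2 equal, with a median of 0.13. Mertk, the receptor by which macrophages take up dying cells, read 66.9 after FGF18 and 47.3 in saline, a difference of 0.49. Folr2, a folate receptor of resident macrophages, read 18.4 after FGF18 and 14.6 in saline, a difference of 0.32. The saline value of Folr2 lay under the olfactory receptor 95th percentile of that array, 16.5. Laptm5 and Ctsd, both lysosomal, were at the other end, with differences of -0.36 and -0.35. Laptm5 read 15.9 after FGF18 and 20.7 in saline, and Ctsd, which many other skin cells express too, read 330 after FGF18 and 422 in saline. The list held no gene past 1.5-fold in either direction.

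Monocyte genes, for the blood cells that replenish macrophages, had 3 higher, 3 lower and 2 equal of 8 measured, with a median of 0.00. Ly6c2 and Ccr2, which define inflammatory monocytes, read 5.06 and 7.46 after FGF18 and 5.06 and 7.72 in saline, all below the medians. Of the rest, Fn1 and Vcan, at differences of 0.68 and 0.42, are matrix genes that fibroblasts also express, and Treml4 stood at -0.31. Ptprc, the CD45 phosphatase carried by all leukocytes, read 17.3 after FGF18 and 14.8 in saline, a difference of 0.21, just above both medians and below the disagreement between probe sets.

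Langerhans cells were represented by Cd207, which encodes langerin, the lectin of their Birbeck granules. It read 26.6 after FGF18 and 20.2 in saline and was 1.30-fold higher, with a difference of 0.38. Langerin is also made by some dermal dendritic cells. Flt3, the receptor on which dendritic cells other than Langerhans cells depend, read 6.48 after FGF18 and 8.57 in saline, below both medians. Dendritic cell genes as a wider list had a median of -0.07, and of 11 measured genes 5 were higher and 6 lower. Epcam, an adhesion molecule of Langerhans cells and of follicle keratinocytes, was lowest of the list at -0.47, reading 99.3 after FGF18 and 138 in saline, and Mfge8, at -0.14, was next among the genes above both medians. Ccr7, the homing receptor of migrating dendritic cells, stood at 0.06 and Zbtb46 at 0.03.

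The class II genes of antigen presentation did not lie on one side. H2-Ab1, a beta chain, read 46.0 after FGF18 and 38.1 in saline, a difference of 0.27. H2-Eb1, the other beta chain, read 48.6 after FGF18 and 45.5 in saline, a difference of 0.09. H2-Aa, the alpha chain that pairs with the product of H2-Ab1, went the other way, at 12.5 after FGF18 and 17.1 in saline, with a difference of -0.43. H2-Ab1, H2-Aa and H2-Eb1 follow one another in the RefSeq gene order with 0 protein-coding genes between. The cluster annotated to Cd74, the invariant chain of class II, together with Mir5107 read 39.05 after FGF18 and 56.2 in saline, a difference of -0.51. H2-Ea, the partner of H2-Eb1, read 41.4 after FGF18 and 43.2 in saline, a difference of -0.06. BALB/c mice carry another H2 haplotype than the C57BL/6 reference, and how well the probes match it was not examined here.

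The promoters of H2-Aa and H2-Eb1 are shown because both genes carry the class II promoter module and their differences had opposite signs. The contrast is weak: H2-Aa read 12.5 after FGF18, below the median of that array, 13.8. The difference of H2-Eb1, 0.09, was smaller than the disagreement between probe sets. Capitals mark the core of its Y box (ATTGG, or CCAAT on the opposite strand) in the 100 bases before the start, 5′ to 3′ on the gene's strand, from RefSeq on GRCm38.p6: chr17:34287824-34287923 (minus strand) and chr17:34305767-34305866 (plus strand).
H2-Aa: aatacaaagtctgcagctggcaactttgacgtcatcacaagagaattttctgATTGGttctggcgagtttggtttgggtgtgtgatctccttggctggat
H2-Eb1: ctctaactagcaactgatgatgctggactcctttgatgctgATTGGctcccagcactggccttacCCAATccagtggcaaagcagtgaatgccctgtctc

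The core begins 48 bases before the start of H2-Aa and 59 bases before that of H2-Eb1, which has a second copy on the opposite strand, 35 bases before the start. These letters are common: 41.1% of all genes with a window held them on either strand, as did 11 of the 31 immune marker genes. The motifs marked here do not overlap one another in the stretches shown. Ciita, the coactivator that works through this module, read 12.9 after FGF18 and 14.6 in saline. Other genes of class II processing had 3 higher, 7 lower and 2 equal of 12, with a median of -0.08. Rfxap, a subunit of the factor that binds the module, was at 0.23 and Rfxank, its partner subunit, at -0.21. A cluster annotated to Rfxank together with Nr2c2ap went the other way, at 15.8 after FGF18 and 11.6 in saline. Ifi30, a lysosomal reductase that prepares antigen, was lowest at -0.32. H2-DMa, which helps to load peptide, stood at 0.08, while H2-DMb1, its partner, read 4.60 on both arrays.

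**Figure D3:**
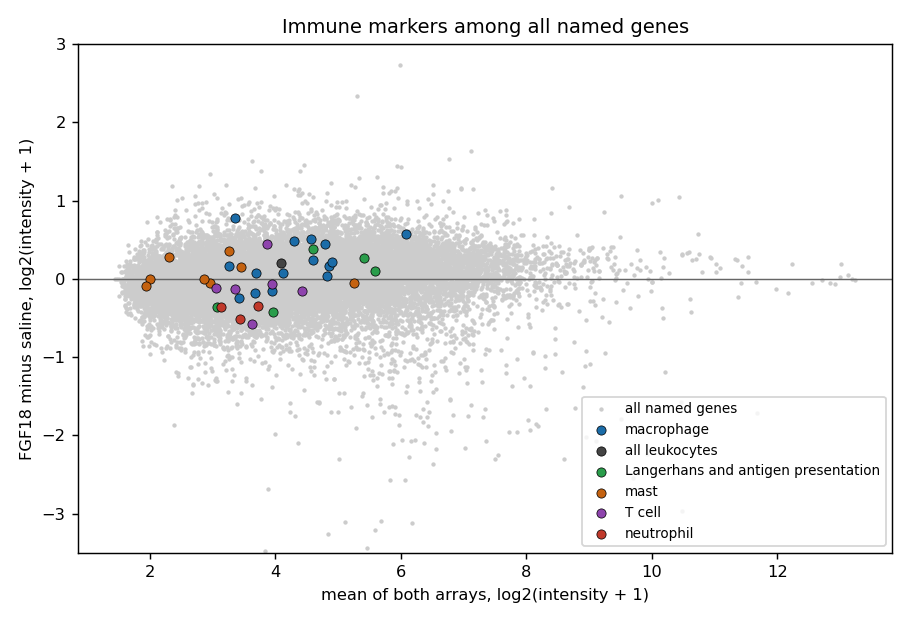
Difference, FGF18 minus saline, against the mean of both arrays for all 22180 named genes (grey) and the immune markers by cell type, both axes on the log2(intensity + 1) scale. The markers lie inside the grey cloud, most of them in its dim to middle range and 4 above the 75th percentile of both arrays. Outside the plotted range lie 2 genes.

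Mast cell genes were dim on both arrays. Fcer1a, the IgE-binding chain of the high-affinity IgE receptor, read 2.71 after FGF18 and 2.96 in saline. Ms4a2, its beta chain, read 6.33 on both arrays, whereas Fcer1g, the third chain, which many myeloid cells share, was above both medians. Mcpt4 and Cma1, chymase genes of connective tissue mast cells, read 3.004 and 4.47 after FGF18 and 3.004 and 3.52 in saline. Cpa3, the mast cell carboxypeptidase, read 6.64 after FGF18 and 6.91 in saline, and Tpsb2, a tryptase, 10.6 after FGF18 and 9.46 in saline. Hdc, which makes histamine, read 9.91 after FGF18 and 7.502 in saline. None of these 7 genes is shown above background, and no fold is given for them. The values of Mcpt4 and Ms4a2 were exactly equal on both arrays, as were those of 2026 of all 41345 clusters. Chymase and tryptase genes have close paralogs, so their probes may not be specific.

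Kit, the stem cell factor receptor, was the exception among the mast cell genes, at 36.6 after FGF18 and 37.9 in saline, a difference of -0.05. Melanocytes also carry KIT, and all 8 melanocyte markers were above both medians and higher on the FGF18 array, with a median of 0.42 and a summed intensity of 1096 after FGF18 and 791 in saline. Their part in the Kit value was not tested. Kitl, the ligand, read 211 after FGF18 and 165 in saline, a difference of 0.35. A wider list of 16 measured mast cell genes had 3 higher, 11 lower and 2 equal, with a median of -0.11, and only Hpgds and Rab27b were above both medians, at -0.10 and -0.16. Tpsab1, the other tryptase, read 6.79 after FGF18 and 7.47 in saline. Mrgprb2, a mast cell receptor for basic secretagogues named after its values were seen, read 11.7 after FGF18 and 20.4 in saline, above the median on the saline array alone.

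T cell genes were dim as well. Cd5, an inhibitory co-receptor of T cells, read 19.3 after FGF18 and 21.6 in saline, a difference of -0.15. Zap70, the kinase that docks on the activated receptor, read 14.1 after FGF18 and 14.8 in saline, a difference of -0.06. Both were above both medians, by little in the case of Zap70, and both differences were below the disagreement between probe sets. Cd2, an adhesion receptor of T and natural killer cells, read 7.05 after FGF18 and 7.70 in saline.

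The CD3 chains, which assemble in 1 receptor complex, did not go together. Cd3e had the lowest difference of all members, -0.58, reading 9.13 after FGF18 and 14.1 in saline. Cd3g lay on the other side at 0.44, reading 16.03 after FGF18 and 11.6 in saline, and Cd3d stood at -0.13, reading 8.85 after FGF18 and 9.78 in saline. Each of these lay below the array median on at least 1 array. These genes, too, are direct neighbours in the RefSeq gene order, as Cd3g, Cd3d and Cd3e.

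Further T cell genes had a median of -0.09, with 8 of 18 higher and 10 lower. Lat, the adaptor of T cell receptor signalling, was lowest among those above both medians at -0.27, reading 17.9 after FGF18 and 21.8 in saline, followed by Thy1 at -0.14. Bcl11b, a T lineage transcription factor that keratinocytes express too, stood at 0.25. The co-receptor genes Cd4, Cd8a and Cd8b1 were not above both medians.

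All 3 neutrophil genes were lower on the FGF18 array, and none was above a median on either array. Ly6g, whose product is the standard surface marker of mouse neutrophils, read 8.11 after FGF18 and 11.99 in saline, a difference of -0.51. Csf3r, the G-CSF receptor, read 10.7 after FGF18 and 13.9 in saline, a difference of -0.34. Retnlg, a secreted resistin-like protein of neutrophils, read 6.81 after FGF18 and 9.004 in saline, a difference of -0.36. Ly6g belongs to a family of close paralogs, and its probes may not be specific. A wider neutrophil list did not share the direction: 10 of 14 measured genes were higher, 3 lower and 1 equal, with a median of 0.14. Only 2 of the 14 were above both medians. Lcn2, an iron-binding antibacterial protein that keratinocytes also make, stood at 0.32, and Cebpe, a granulocyte transcription factor, at 0.06, both above both medians. Of genes named after their values were seen, S100a8 and S100a9, calprotectin genes abundant in neutrophils, read 11.7 and 12.04 after FGF18 and 8.10 and 8.64 in saline. Cxcr2, the chemokine receptor that draws neutrophils into tissue, was named in the same way and read 8.85 after FGF18 and 19.7 in saline. On the FGF18 array Cxcr2 and Cd3d had the same value, 8.8544, and Cd14 read 8.85438. The cause of this tie between unrelated genes was not tested.

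Growth factors of these receptors were compared with the receptors themselves. Il34, the ligand of the CSF1 receptor in epidermis, read 17.2 after FGF18 and 25.5 in saline and was 1.46-fold lower, a difference of -0.54. Csf1, its other ligand, read 20.5 after FGF18 and 20.6 in saline. Il34 is known as a keratinocyte product, and all 11 genes of the differentiated keratinocyte list were lower after FGF18, by differences from -2.96 to -0.95, with a summed intensity of 4612 after FGF18 and 18368 in saline. The part of keratinocytes in the Il34 value was not tested. Cd207, the Langerhans marker, lay on the other side from Il34, at 0.38. Csf3, the ligand of the G-CSF receptor, read 10.2 after FGF18 and 12.3 in saline, and the single-symbol table held no Flt3l. Tgfb1, which Langerhans cells need, stood at 0.36, reading 26.6 after FGF18 and 20.5 in saline. The list as a whole had a median of -0.18, with 2 of 10 higher and 8 lower. Over the 4 genes above both medians the sign was the other, with a median of 0.17, 2 higher and 2 lower.

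Partners of C1q in the classical complement pathway had a median of 0.11, with 7 of 10 higher and 3 lower. C4b, the next substrate in the cascade, stood at 0.28, reading 18.4 after FGF18 and 14.9 in saline. That saline value lay under the olfactory receptor 95th percentile of the saline array, 16.5. Serping1, the inhibitor of the C1 proteases, was lower at -0.29, reading 28.5 after FGF18 and 35.1 in saline, and C1rb, a C1 protease gene, was level at 28.7 after FGF18 and 28.6 in saline.

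**Figure D4:**
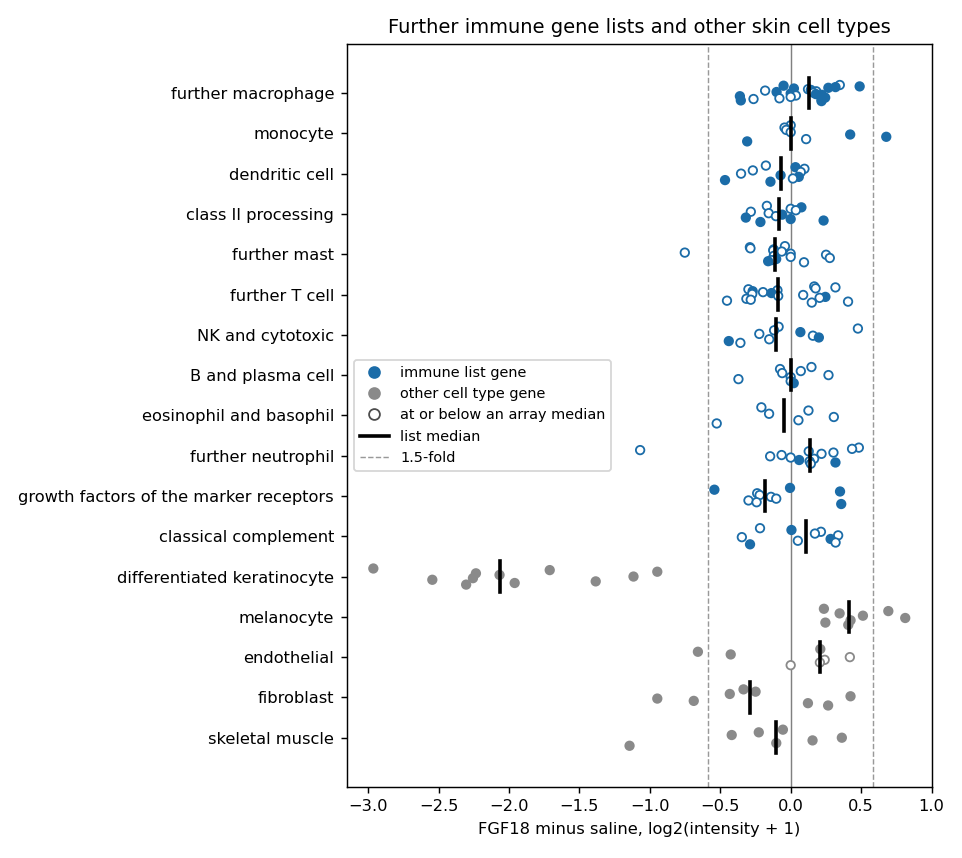
Difference (FGF18 minus saline, log2(intensity + 1) scale) of each gene of the further immune lists (blue) and of other skin cell types (grey); filled points lie above both array medians, bars are list medians and dashed lines mark 1.5-fold. Immune list medians lie between -0.18 and 0.14, and the differentiated keratinocyte median lies at -2.07.

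Differences of the other skin cell types set the scale for the immune markers. Besides the keratinocyte and melanocyte lists, fibroblast markers had a median of -0.29 over 8 genes, endothelial markers one of 0.21 over 7, which was -0.43 over the 3 above both medians, and skeletal muscle markers one of -0.10 over 7. Fibroblast members ran from -0.95 for Lum to 0.42 for Dcn, and endothelial members above both medians from -0.66 for Cdh5 to 0.21 for Pecam1. The single measured red blood cell gene, Slc4a1, read 6.43 after FGF18 and 10.4 in saline, below both medians. The 2 clusters annotated to the alpha globin genes Hba-a1 and Hba-a2 together lay on the other side, at 43.4 and 23.95 after FGF18 and 26.5 and 18.9 in saline, with differences of 0.69 and 0.33. Clusters shared by beta globin genes were below both medians and of mixed sign, at 3.37, 2.70 and 6.42 after FGF18 and 3.24, 3.10 and 5.10 in saline. The cluster shared by Alas2 and Apex2, also below both medians, read 6.61 after FGF18 and 8.68 in saline. The red blood cell genes thus gave no common direction. The part of blood in the immune marker values was not tested. Among genes above both medians over the whole array, the median was 0.07, and 58.4% of them were higher and 38.6% lower. Of the 16 immune members above both medians, 13 were higher, and Kit, Cd5 and Zap70 were the lower ones; their median was 0.21.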

How the data were processed

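The authors' deposited table holds 41345 transcript clusters as intensities, which their range shows to be linear and not log values. Affymetrix Expression Console and RMA, which corrects background and normalizes the arrays to one distribution, are named in the submitters' processing notes, with no versions. RNA was isolated with Trizol, then biotin-labelled with the WT PLUS kit, per the labels' protocols. Precision is limited by the number of arrays, 1 per group.

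The platform annotation gave 1 symbol to 23521 clusters, several to 1814 and none to 16010; 23328 of the first matched the RefSeq gene table (GRCm38.p6) by Entrez identifier. Clusters of a symbol were averaged as log2(intensity + 1). Values were computed in Python 3.11.15 with pandas 2.3.3, and a loess trend in R 4.3.3. Gene differences, their medians and the counts past 1.5-fold were tested on simulated arrays. The shifts set there held no noise, so the test checks the arithmetic only. The members, lists and thresholds were chosen with earlier results of these data known. All members are named. Of other lists, at most the 2 highest and 2 lowest differences above both medians are named, with the receptor ligands Csf1, Il34, Kitl and Csf3 and, as partners of members, H2-DMa, H2-DMb1, H2-Ea, Ciita and Tpsab1. Ly6c2, Ccr2, Slc4a1, Cd4, Cd8a and Cd8b1, and the genes so marked in the report, were chosen after their values were seen. Alternatives were pseudocount, cluster choice, centring, trend, filter, threshold, summary and leaving out a member.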

Additional observations from a re-analysis of the deposited data

How the results depend on the processing

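No paired analysis was possible because each group has 1 array. Of 57 alternative values for 8 results, 49 stayed within 0.1 on the log2 scale, or within 1.5 times for counts, and 8 did not. Part of the 49 was fixed in advance. Centring could not move a value, since the median difference over all named genes was 0. Taking the brightest cluster could not either, since all 38 measured members had 1 cluster. The limit of 0.1 is also as large as some of the list medians, so the count is no measure of robustness. The median of the Langerhans and antigen presentation genes was 0.09 as reported, but -0.13 when a cluster annotated to Cd74 together with Mir5107 was counted, 0.27 over members above both medians and -0.0069 as a mean, so its sign is not settled. The neutrophil median was -0.16 with a pseudocount of 16, and had no value over members above both medians since there were none. The count of members at least 1.5-fold higher was 0 with a pseudocount of 16, 0 among members above both medians and 0 at 2-fold. At the 75th percentile of each array 4 members were above on both. The macrophage median stayed between 0.11 and 0.24, the T cell median between -0.13 and -0.046, and the mast cell median between -0.050 and 0.075.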

Other observations

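Most markers of the immune cells not described above were not above both array medians. Natural killer and cytotoxic genes had a median of -0.10, with 4 of 10 higher and 6 lower, and one of 0.07 over the 3 above both medians. Tbx21, the T-bet transcription factor of type 1 lymphocytes, read 14.7 on the FGF18 array and 20.3 on the saline array, a difference of -0.44, while Prf1, the perforin gene, stood at 0.20 and Nkg7, a granule protein gene, at 0.07. B and plasma cell genes had 4 higher, 3 lower and 2 equal of 9, with a median of 0.00. Among them only Mzb1, a chaperone gene of antibody-secreting cells, was above both medians, at 19.2 after FGF18 and 18.9 in saline. Eosinophil and basophil genes had a median of -0.05, with 3 of 6 higher and 3 lower, and none was above both medians.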
